A study of Mus musculus with 18 samples.

Results

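The transcripts described here are 35 genes of the cell cycle, 22 that act in mitosis and 13 that act in DNA replication or in the entry into it, taken by name from the 57010 genes counted in mouse ovary and uterus. All 35 were found by symbol and all passed the filter on low counts in every fit. The RNA came from ovaries and uteri of C57B6/J female mice aged 20-25 weeks, homozygous (ARE-/-), heterozygous (ARE+/-) or wild type (WT) at the ARE locus, with 3 libraries for each of the 3 genotypes in each of the 2 tissues. ARE stands, as background, for the AU-rich element of Ifng, the interferon gamma gene, whose loss makes that transcript more stable, and the series concerns failed implantation. The labels give no promoter or Cre, no other allele or agent, and no estrous stage, and they do not tie an ovary and a uterus to 1 mouse.

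Ifng was higher in every ARE-/- and ARE+/- library than in every WT library of the same tissue. Ovaries held 51, 38 and 50 counts in ARE-/-, 18, 10 and 28 in ARE+/- and 4, 0 and 4 in WT. Uteri held 96, 130 and 56 counts in ARE-/-, 58, 36 and 70 in ARE+/- and 4, 6 and 0 in WT, so that ARE-/- and ARE+/- uteri overlapped. Library totals ran between 38132822 and 46647171 counts in ovaries and between 33185496 and 49720354 in uteri. Of the tissue markers, summed CPM (counts scaled for library size) of 7 luteal genes lay between 3674.6 and 13918.5 in the 9 ovary libraries and between 28.03 and 219.2 in the 9 uterus libraries. Uterus ARE-/- replicate 1 stood apart from the other uteri: 12 oocyte genes summed to 39.5 CPM there against at most 4.65 CPM elsewhere, 7 adipocyte genes to 6579.2 CPM against at most 958.1 CPM, and 7 smooth muscle genes to 19449 CPM against at most 9421.1 CPM. Medians of gene lists in ARE-/- uteri against WT are therefore given with and without it, as are the genes described by library whose log2 fold change it moved by over 1.5 times.

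Dividing cells switch these genes on in waves. As a cell commits to division, E2F1, a transcription factor held back by the retinoblastoma protein, and the E-type cyclins promote the replication genes, and CDC6 then loads the MCM helicase onto origins, while PCNA clamps the polymerase to the template and RRM2 and TYMS supply nucleotides. Later come the mitotic genes, many of them turned on by FOXM1. They encode cyclins A and B with CDK1, the Aurora and Polo kinases, kinesins, kinetochore proteins and the ubiquitin enzymes that end mitosis. In cycling females the uterine epithelium divides under estrogen and its stroma under progesterone, and in the ovary granulosa cells of growing follicles are the main dividing population.

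The promoters of 4 members, 2 mitotic and 2 of replication, are shown because motifs in them are known as sites of mitotic and replication regulators. They belong to genes whose values by library are given further on. They were picked from the genes named under the processing as the 2 of each group with the most motif matches. Each line holds the 250 bases before the transcription start from RefSeq (GRCm38.p6), 5′ to 3′ on the gene's strand. Capitals mark matches on either strand to one of 3 motifs. The cell cycle homology region was searched as TTTGAA. The CCAAT box was searched by the letters of its name. The E2F motif, which E2F factors recognise, was searched in 3 spellings. The first spelling was TTCCCGC. The second spelling was TTGGCGC, and the last of the spellings, whose matches can overlap those of the second, was written as TTTGGCG. Top2a lies at chr11:99024190-99024439 (minus strand), Cdk1 at chr10:69352913-69353162 (minus), Mcm5 at chr8:75109259-75109508 (plus) and Mcm2 at chr6:88898781-88899030 (minus).
Top2a: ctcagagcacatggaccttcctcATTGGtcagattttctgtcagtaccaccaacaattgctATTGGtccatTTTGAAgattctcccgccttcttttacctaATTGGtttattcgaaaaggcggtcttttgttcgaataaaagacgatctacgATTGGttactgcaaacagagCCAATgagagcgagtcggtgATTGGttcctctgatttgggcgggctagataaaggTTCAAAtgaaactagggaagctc
Cdk1: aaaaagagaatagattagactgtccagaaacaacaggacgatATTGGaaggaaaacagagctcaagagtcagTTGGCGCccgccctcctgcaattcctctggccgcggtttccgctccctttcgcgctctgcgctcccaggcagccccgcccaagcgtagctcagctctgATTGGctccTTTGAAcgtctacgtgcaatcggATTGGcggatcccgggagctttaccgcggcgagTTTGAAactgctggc
Mcm5: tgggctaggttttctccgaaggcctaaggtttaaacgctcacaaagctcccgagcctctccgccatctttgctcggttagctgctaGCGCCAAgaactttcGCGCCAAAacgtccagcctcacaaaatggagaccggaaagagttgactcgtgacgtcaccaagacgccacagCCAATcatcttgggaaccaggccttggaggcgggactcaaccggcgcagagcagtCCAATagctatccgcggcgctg
Mcm2: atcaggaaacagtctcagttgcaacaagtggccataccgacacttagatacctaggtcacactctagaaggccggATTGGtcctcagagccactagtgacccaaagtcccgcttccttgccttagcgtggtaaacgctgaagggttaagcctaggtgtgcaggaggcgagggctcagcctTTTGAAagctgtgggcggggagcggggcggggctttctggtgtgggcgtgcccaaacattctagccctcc
The Top2a window held 2 matches to the cell cycle homology region and 6 CCAAT boxes, and the Cdk1 window held 2 and 3, with 1 E2F match. The Mcm5 window held 3 E2F matches, a pair of which overlap, and 2 CCAAT boxes, and the Mcm2 window held 1 match to the cell cycle homology region and 1 CCAAT box. Being picked for their matches, these windows are not typical. Mki67 held as many matches as Cdk1, but Pcna and Rrm2 held 1 each, and Ccne1 and E2f1 held 0.

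RefSeq promoters were found for 28 of the 35 members (30 promoters), and the other 7 had no entry in the table used here. The cell cycle homology region matched in 8 of 18 mitotic promoters (44.4%), in 1 of 12 replication promoters (8.33%) and in 16.0% of all 32851 promoters of the same length. The E2F motif matched in 3 of 18 mitotic promoters (16.7%), in 5 of 12 replication promoters (41.7%) and in 6.33% of all. CCAAT boxes were common in both groups, in 16 of 18 mitotic (88.9%) and 8 of 12 replication promoters (66.7%), against 33.9% of all. These are matches of letters in a window, and binding was not measured.

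Per length, Pcna, the replication clamp, was the most abundant member in both tissues. Pcna (ENSMUSG00000027342) lies on chromosome 2, 132091082 to 132095234, minus strand, in the GENCODE M32 annotation of the files, as for the gene coordinates that follow. In TPM (counts scaled by exon length and library), it averaged 99.3 ± 8.41 in WT ovaries and 126.6 ± 35.1 in WT uteri (SD, n = 3 each, as for all TPM means). Mcm7, a subunit of the replicative helicase, came second, at 41.6 ± 1.09 TPM in WT ovaries and 38.3 ± 3.91 TPM in WT uteri. The next in WT ovaries were Top2a, the topoisomerase that untangles chromosomes, at 27.3 ± 1.31 TPM, and Cdc20, the activator of the ubiquitin ligase that ends metaphase, at 25.6 ± 2.39 TPM. Top2a and Cdc20 did not differ beyond their spread there, nor did Mcm3 (34.9 ± 13.3 TPM) and Top2a (34.4 ± 5.66 TPM), which held these places in WT uteri.

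At the low end of WT ovaries stood Cdc6, which loads the helicase, at 2.49 ± 0.713 TPM, and Ccne1, cyclin E1, at 2.55 ± 0.484 TPM. The low end of WT uteri was held by the kinetochore genes Cenpf at 2.18 ± 0.451 TPM and Cenpe at 2.88 ± 0.561 TPM. In neither tissue did such a pair differ beyond its spread. Every other member lay between these ends, among them Mki67, the antigen Ki-67, at 11.3 ± 0.762 TPM in WT ovaries and 12.1 ± 2.68 TPM in WT uteri.

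By role, mean TPM of the mitotic cyclins and their kinase (Ccna2, Ccnb1, Ccnb2 and Cdk1) ran between 10.2 and 22.96 in WT ovaries and between 8.18 and 18.6 in WT uteri. The checkpoint, Aurora and Polo kinases (Bub1, Bub1b, Aurka, Aurkb and Plk1) ran between 7.39 and 16.8 TPM in WT ovaries and between 5.15 and 11.2 TPM in WT uteri. Spindle proteins (Kif11, Kif20a, Tpx2, Nusap1 and Prc1) ran between 7.64 and 17.5 TPM in WT ovaries and between 6.26 and 16.01 TPM in WT uteri. The top of each of these 3 ranges was higher in WT ovaries. Ube2c, the ubiquitin enzyme that works with Cdc20, stood at 16.5 ± 0.487 TPM in WT ovaries and 11.97 ± 3.45 TPM in WT uteri.

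The 6 helicase subunits Mcm2, Mcm3, Mcm4, Mcm5, Mcm6 and Mcm7 ran between 16.1 and 41.6 TPM in WT ovaries and between 24.4 and 38.3 TPM in WT uteri. Of the nucleotide enzymes, Rrm2 stood at 15.7 ± 0.998 TPM in WT ovaries and 22.1 ± 9.88 TPM in WT uteri, and Tyms at 8.03 ± 1.02 TPM in WT ovaries and 11.7 ± 2.75 TPM in WT uteri. The 4 genes of replication entry (Cdc6, Ccne1, Ccne2 and E2f1) ran between 2.49 and 6.91 TPM in WT ovaries and between 4.796 and 7.52 TPM in WT uteri.

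Summed over the 22 mitotic members, the ovary libraries held 274.8, 233.2 and 470.3 TPM in ARE-/- (replicates 2, 3 and 6), 479.3, 332.2 and 356.2 TPM in ARE+/- (replicates 1, 2 and 4) and 304.4, 302.9 and 310.5 TPM in WT (replicates 1, 2 and 3). All 3 ARE+/- sums stood above all 3 WT sums, whereas the ARE-/- libraries fell on both sides of WT, replicates 2 and 3 below and replicate 6 above. Over the 13 replication members the ovary sums were 331.3, 273.7 and 416.6 TPM in ARE-/-, 363.2, 294.0 and 357.9 TPM in ARE+/- and 272.9, 304.3 and 299.0 TPM in WT, and the groups overlapped. WT ovaries were the most even group of the study, with a median over mitotic members of 1.14 for the highest library over the lowest, against 1.99 in ARE-/- and 1.51 in ARE+/- ovaries.

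In the uterus the mitotic sums were 88.8, 202.4 and 162.2 TPM in ARE-/-, 309.6, 352.6 and 84.5 TPM in ARE+/- and 271.5, 179.3 and 262.9 TPM in WT (replicates 1, 2 and 3 in each, the order of all uterus values given by library). The lowest libraries were ARE+/- replicate 3 and ARE-/- replicate 1, and the highest were the other 2 ARE+/- libraries, so that ARE+/- uteri spanned both ends. Replication members summed to 208.2, 264.3 and 206.9 TPM in ARE-/- uteri, 338.2, 321.6 and 180.6 TPM in ARE+/- uteri and 450.8, 237.7 and 403.6 TPM in WT uteri. Here WT replicates 1 and 3 were highest, and WT replicate 2 lay inside the range of the other genotypes. In CPM the replication sums of ARE-/- uteri were 439.7, 416.8 and 329.5, so the place of replicate 1 within its group depended on the scale.

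**Figure D1:**
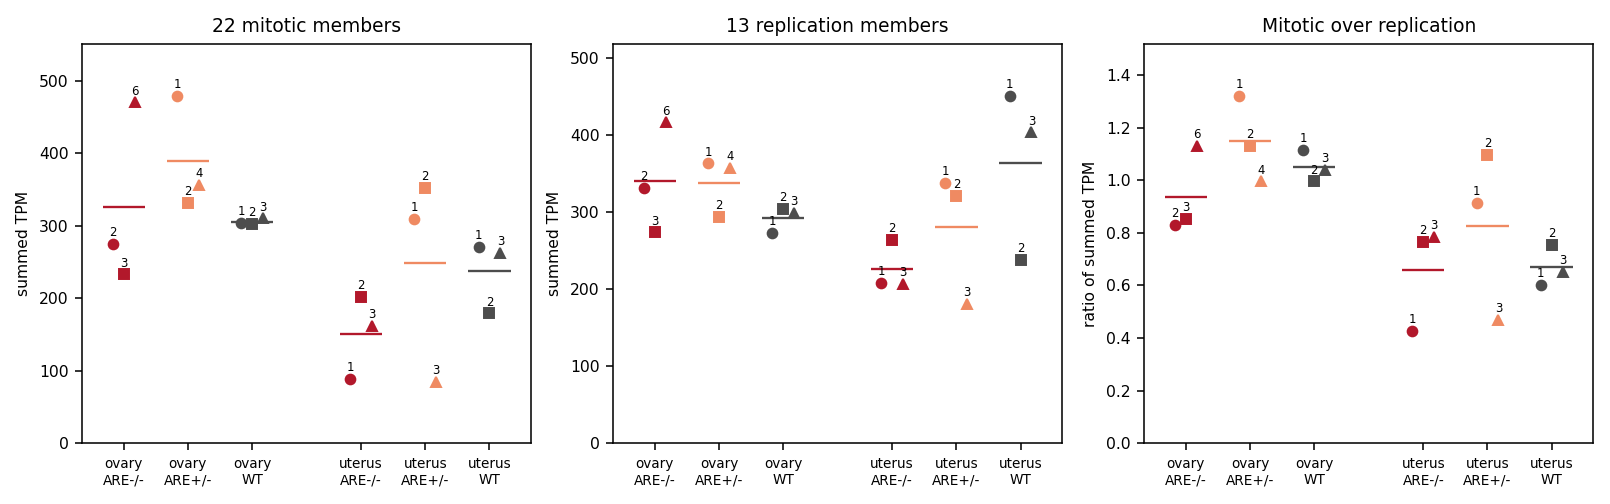
Summed TPM of the 22 mitotic members, summed TPM of the 13 replication members and the ratio of both sums, for each library (points, marked with the replicate number) and as group means (bars), with ARE-/-, ARE+/- and WT from left to right in ovary and uterus. Ovary ARE-/- replicate 6 stands at 470.3 TPM of mitotic transcripts, against 274.8 and 233.2 TPM in the other ARE-/- ovaries, and uterus ARE+/- replicate 3 at 84.5 TPM, against 309.6 and 352.6 TPM in the other ARE+/- uteri.

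The ratio of mitotic to replication TPM was 0.829, 0.852 and 1.13 in ARE-/- ovaries, 1.32, 1.13 and 0.995 in ARE+/- ovaries and 1.12, 0.995 and 1.04 in WT ovaries. Uteri gave 0.427, 0.766 and 0.784 in ARE-/-, 0.915, 1.10 and 0.468 in ARE+/- and 0.602, 0.755 and 0.651 in WT. The ratio overlapped between genotypes in both tissues, and the WT ovaries did not overlap the WT uteri. In bulk tissue a smaller number of dividing cells and less of these transcripts per cell cannot be told apart.

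Single libraries set most of the extremes. Of the 9 ovary libraries, ARE-/- replicate 3 was lowest in CPM for 14 of 22 mitotic members, ARE+/- replicate 1 was highest for 13 of 22 and ARE-/- replicate 6 for 9 of 22. The last, which its title marks as a backup sample, was also highest for 12 of 13 replication members. Uterus WT replicate 1 is the other library whose title marks it as a backup sample. Of the 9 uterus libraries, ARE+/- replicate 3 was lowest for 17 of 22 mitotic and 9 of 13 replication members, and ARE+/- replicate 2 was highest for 15 of 22 mitotic members. Within WT uteri, replicate 2 was lowest for 20 of 22 mitotic and 13 of 13 replication members.

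**Figure D2:**
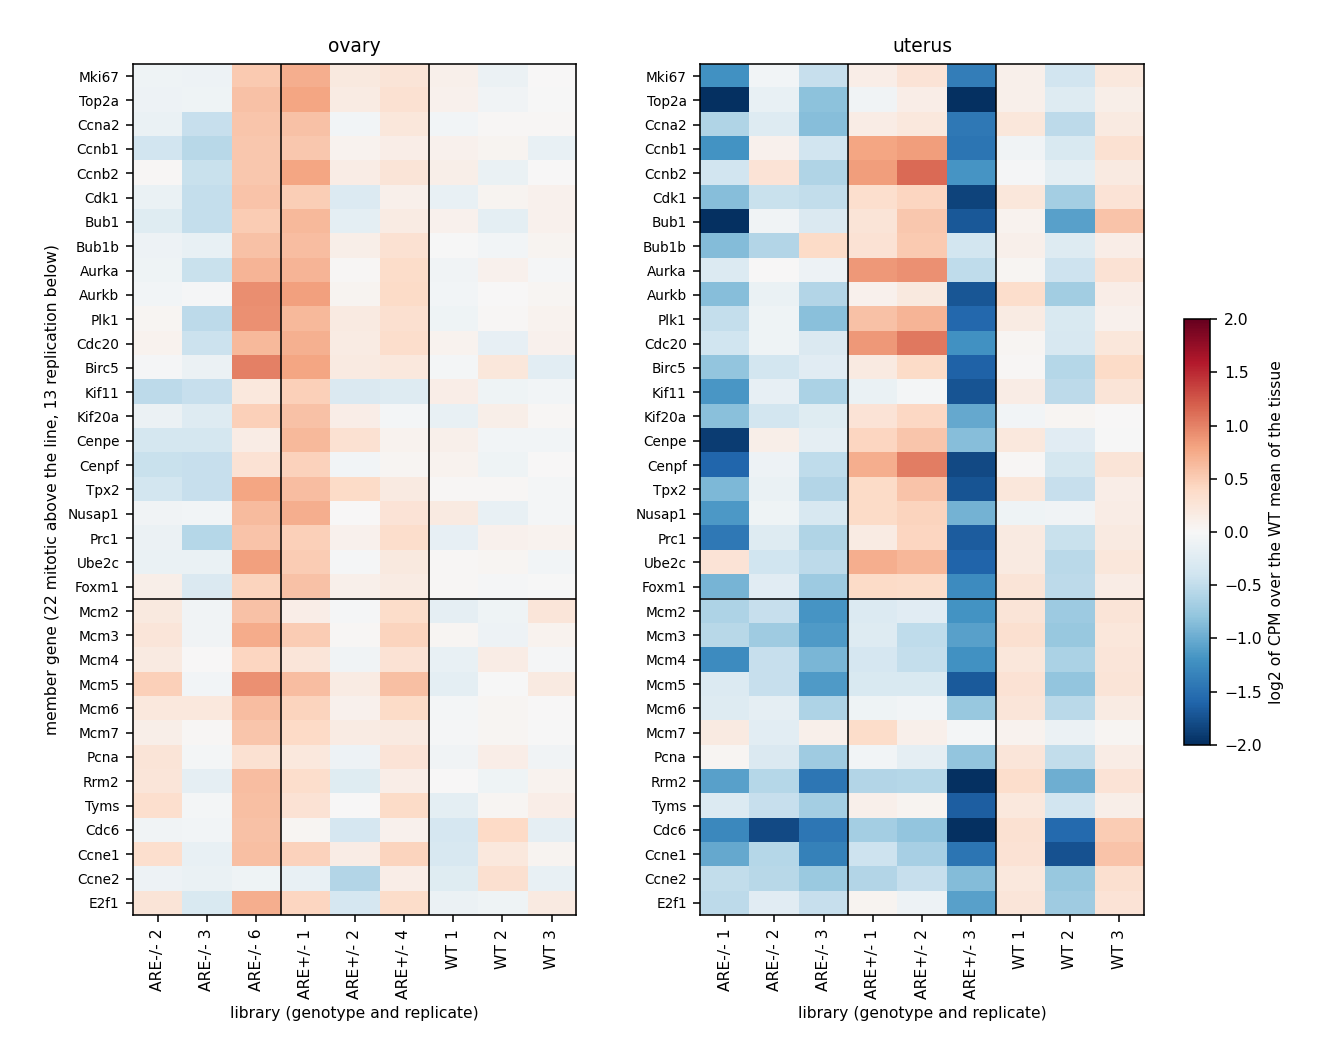
Log2 of each member's CPM over its WT mean in the same tissue (colour, limited at ±2) for the 35 members, mitotic above replication, in the 9 ovary and the 9 uterus libraries, with ARE-/-, ARE+/- and WT from left to right. Whole columns share a colour: uterus ARE+/- replicate 3, lowest for 17 of 22 mitotic members, stands apart from the other ARE+/- uteri, and ovary ARE-/- replicate 6 from the other ARE-/- ovaries.

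Oocyte markers were highest in the 3 ovary libraries with the most mitotic transcripts, but the match did not hold throughout. The 12 oocyte genes summed to 185.5, 132.3 and 364.4 CPM in ARE-/- ovaries, 296.7, 184.9 and 260.2 CPM in ARE+/- ovaries and 221.0, 229.7 and 204.4 CPM in WT ovaries. The libraries with the 3 highest oocyte sums (ARE-/- replicate 6, ARE+/- replicates 1 and 4) also had the 3 highest mitotic sums in CPM (853.6, 890.0 and 660.2). ARE+/- replicate 2 went the other way, its mitotic sum (606.3 CPM) above and its oocyte sum (184.9 CPM) below every WT ovary. ARE-/- replicate 3 had the lowest of both sums. The 8 granulosa genes were lowest in that library too, at 1017.8 CPM, against 1824.2 to 3259.9 CPM in the other ovaries, but highest in WT replicates 1 and 3 (3259.9 and 2831.2 CPM). Luteal genes summed to between 3674.6 and 9883.1 CPM in ARE-/- ovaries, 4423.3 and 12222 CPM in ARE+/- ovaries and 8900.0 and 13918.5 CPM in WT ovaries. ARE-/- replicate 6 stood apart from ARE-/- replicates 2 and 3 in several lists. Its luteal sum was 9883.1 CPM, against 3674.6 and 3806.6 CPM. Its adipocyte sum was 34.4 CPM, against 667.4 and 1110.3 CPM. Its macrophage sum was 803.7 CPM, against 1697.5 and 1472.1 CPM, and its smooth muscle sum 2984.1 CPM, against 5891.8 and 4710.6 CPM. The part of any of these cell types in the mitotic values was not tested.

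Hormone-response transcripts varied among the uteri within a genotype as well. A list of 12 estrogen-response genes summed to 6121.3, 3207.6 and 11550.0 CPM in ARE-/- uteri, 3410.5, 3381.9 and 12218.3 CPM in ARE+/- uteri and 3260.3, 1157.7 and 3358.3 CPM in WT uteri. A list of 10 progesterone-response genes was highest in WT replicate 2, at 1117.3 CPM, and lowest in ARE-/- replicate 1, at 195.7 CPM. ARE+/- replicate 3 thus had the highest estrogen-response sum and the lowest mitotic sum of the 9 uteri, and WT replicate 2 had the lowest estrogen-response sum and the lowest member sums of the WT uteri. The labels give no estrous stage, and its part in these values was not tested.

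T cell markers followed the genotype. The list of 11 T cell genes summed to between 57.8 and 124.3 CPM in ARE-/- ovaries, 39.9 and 52.9 CPM in ARE+/- ovaries and 25.5 and 34.8 CPM in WT ovaries. In the uterus the range was 109.5 to 151.3 CPM in ARE-/-, 50.2 to 66.7 CPM in ARE+/- and 27.7 to 38.2 CPM in WT. Within ARE-/- ovaries the library with the highest T cell sum, replicate 3, had the lowest mitotic sum. The ARE-/- uteri did not repeat this, as replicate 1 had the lowest of both sums (109.5 CPM of T cell and 258.4 CPM of mitotic genes). Macrophage, fat and stromal markers also set ARE-/- and ARE+/- uteri apart from WT uteri. The 7 macrophage genes summed to between 1359.7 and 2492.2 CPM in ARE-/- uteri, 1059.2 and 1400.8 CPM in ARE+/- uteri and 485 and 654.6 CPM in WT uteri. The 7 adipocyte genes summed to between 476.9 and 6579.2 CPM in ARE-/- uteri, 137 and 242.1 CPM in ARE+/- uteri and 19.3 and 29.98 CPM in WT uteri.

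Stromal fibroblast markers went the other way in the uterus, where the 6 genes summed to between 6149.8 and 10938.1 CPM in ARE-/-, 6592.5 and 11291.4 CPM in ARE+/- and 15132.5 and 20857.3 CPM in WT, so that neither group of mutants overlapped WT. Of the 6, edgeR called the collagen genes Col1a1 (-1.58 ± 0.37, adjusted p = 0.0453) and Col1a2 (-1.40 ± 0.32, adjusted p = 0.0451) lower in ARE-/- than in WT uteri, and 0 without ARE-/- replicate 1. In the fit with all libraries 0.391% of all genes were called lower. The 7 smooth muscle genes summed to between 5177.3 and 5755.2 CPM in ARE+/- uteri and 8702.4 and 9421.1 CPM in WT uteri. ARE-/- replicates 2 and 3 had 4684.8 and 4949.1 CPM, and replicate 1 had 19449.1 CPM. Without ARE-/- replicate 1, edgeR called 5 of these 7 genes lower in ARE-/- than in WT uteri (Acta2, Actg2, Cnn1, Des and Myh11). The 8 uterine epithelium genes summed to between 811.2 and 2137.4 CPM in ARE-/-, 1098.6 and 1983.9 CPM in ARE+/- and 633 and 994.2 CPM in WT. No gene of the T cell, macrophage, adipocyte or stromal lists was at 0 counts in any uterus. The part of these cell types in the member values was not tested.

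In ARE-/- ovaries no member was called higher or lower than in WT by edgeR. Replication members had a median log2 fold change of 0.26, with 12 of 13 positive, and mitotic members one of 0.12, with 17 of 22 positive, beside 0.02 for all 24457 genes tested. The values nearest to a call were those of Mcm6, a helicase subunit, at 0.36 ± 0.13, and Mcm5, at 0.50 ± 0.23 (± SE throughout for log2 fold changes). Few members separated the groups: Mcm6 alone was higher in all ARE-/- libraries than in all WT libraries, where 16.1% of all genes were, and 0 members were lower in all, where 14.5% of all genes were.

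With edgeR's quasi-likelihood test and Benjamini-Hochberg adjustment over all genes, 0 of 35 members were called at an adjusted p under 0.05, while 6.31% of all genes were called higher and 4.15% lower (10.5% either way). At an unadjusted p under 0.05 there was 1 member, Mcm6 (edgeR adjusted p = 0.110), beside 26.6% of all genes, and DESeq2 called 0. Leaving out ARE-/- replicate 6 moved the mitotic median to -0.22, with 22 of 22 members negative, and the replication median to 0.075, with 10 of 13 positive. Leaving out ARE-/- replicate 3 moved these medians to 0.26 and 0.41. The direction of the mitotic members against WT thus differed with 1 library. The p-values measure the spread between these libraries, taken as separate mice from the series' design text.

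Among the mitotic members the usual markers of dividing cells followed the pattern of the sums. Mki67 (chromosome 7, 135291513 to 135318090, minus strand) had 55.1, 54.7 and 84.2 CPM in ARE-/- ovaries, 96.5, 66.7 and 70.2 CPM in ARE+/- ovaries and 62.7, 53.99 and 58.7 CPM in WT ovaries. Top2a had 68.2, 68.6 and 109.5 CPM in ARE-/- ovaries, 126, 81.5 and 90.7 CPM in ARE+/- ovaries and 77.6, 69.3 and 72.6 CPM in WT ovaries. In both genes ARE-/- replicate 6 was above every WT library, while replicates 2 and 3 lay inside the WT range for Mki67 and just below it for Top2a, and the log2 fold changes of ARE-/- over WT were 0.15 ± 0.19 for Mki67 and 0.17 ± 0.21 for Top2a. Ccnb1, cyclin B1, the partner of CDK1 at mitotic entry, had 17.5, 15.4 and 33.1 CPM in ARE-/- ovaries, 32.9, 23.8 and 24.8 CPM in ARE+/- ovaries and 24.1, 23.6 and 20.4 CPM in WT ovaries. ARE-/- replicates 2 and 3 stood below all WT ovaries and replicate 6 above them, and the log2 fold change was -0.04 ± 0.27.

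Cdk1, the kinase that drives mitosis, had 21.4, 16.8 and 34.6 CPM in ARE-/- ovaries, 32.7, 19.4 and 25.2 CPM in ARE+/- ovaries and 21.02, 24.2 and 24.9 CPM in WT ovaries. The log2 fold change of ARE-/- over WT was 0.06 ± 0.27, with overlapping groups. Foxm1, the transcription factor that turns on many mitotic genes, had 22.1, 16.6 and 27.7 CPM in ARE-/- ovaries, 30.5, 21.8 and 22.7 CPM in ARE+/- ovaries and 20.7, 20.02 and 20.2 CPM in WT ovaries. WT libraries of Foxm1 were nearly identical, the ARE-/- libraries lay on both sides of them, and the log2 fold change was 0.12 ± 0.19.

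The extremes of the mitotic group in ARE-/- ovaries were Birc5 and Kif11. Birc5, survivin of the chromosomal passenger complex, had 12.04, 11.3 and 24.7 CPM in ARE-/- ovaries, 21.2, 13.9 and 14.3 CPM in ARE+/- ovaries and 11.9, 14.3 and 10.6 CPM in WT ovaries, a log2 fold change of 0.38 ± 0.30 for ARE-/- over WT. Its ARE-/- replicate 6 alone stood above the WT range, and the other ARE-/- libraries lay inside it. Kif11, the kinesin that pushes spindle poles apart, had 19.1, 20.1 and 32.1 CPM in ARE-/- ovaries, 38.2, 22.5 and 23.1 CPM in ARE+/- ovaries and 30.4, 25.9 and 26.5 CPM in WT ovaries, a log2 fold change of -0.21 ± 0.25. Here ARE-/- replicates 2 and 3 were below all WT libraries and replicate 6 above all.

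Within ARE-/- ovaries replication members were more even, with a median of 1.57 for the highest library over the lowest, against 1.99 for mitotic members. Mcm2, a helicase subunit, had 47.04, 39.2 and 62.1 CPM in ARE-/- ovaries, 45.3, 40.6 and 53.4 CPM in ARE+/- ovaries and 36.6, 38.7 and 48.5 CPM in WT ovaries, a log2 fold change of 0.26 ± 0.18 for ARE-/- over WT. Mcm5, of the same helicase, had 39.7, 27.6 and 53.7 CPM in ARE-/- ovaries, 43.9, 32.1 and 43.1 CPM in ARE+/- ovaries and 24.98, 28.3 and 32.2 CPM in WT ovaries, the largest log2 fold change of the 35 members at 0.50 ± 0.23 (edgeR adjusted p = 0.196). For Mcm5 ARE-/- replicates 2 and 6 were above every WT library and replicate 3 inside their range, and for Mcm2 replicate 6 alone was above them. Without replicate 6 the log2 fold changes were 0.221 for Mcm5, 0.044 for Mcm2 and 0.193 for Mcm6. Mcm6 (chromosome 1, 128259327 to 128287401, minus strand), singled out after its values were seen, had 64.7, 64.2 and 85.3 CPM in ARE-/- ovaries, 75.4, 59.2 and 72.8 CPM in ARE+/- ovaries and 53.98, 57.3 and 55.7 CPM in WT ovaries, and no ARE-/- or ARE+/- library reached down into the WT range.

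Pcna had 92.2, 75.3 and 96 CPM in ARE-/- ovaries, 89.2, 72.5 and 93.1 CPM in ARE+/- ovaries and 74.02, 84.8 and 73.6 CPM in WT ovaries. Rrm2, the regulated subunit of ribonucleotide reductase, had 20.9, 15.6 and 27.1 CPM in ARE-/- ovaries, 22.5, 15 and 19.3 CPM in ARE+/- ovaries and 17.8, 16.6 and 18.6 CPM in WT ovaries. Both overlapped between genotypes, with log2 fold changes of ARE-/- over WT of 0.18 ± 0.12 for Pcna and 0.26 ± 0.20 for Rrm2 (0.095 and 0.031 without ARE-/- replicate 6). Pcna shares 32.9% of its exon bases with the opposite-strand gene AV099323, and counting without strand cannot tell them apart.

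The regulators of replication entry were low and variable. Ccne1 had 3.29, 2.36 and 3.97 CPM in ARE-/- ovaries, 3.61, 2.88 and 3.57 CPM in ARE+/- ovaries and 2.10, 3.03 and 2.71 CPM in WT ovaries, and its log2 fold change of ARE-/- over WT was 0.30 ± 0.26. E2f1 had 13.4, 9.05 and 18.6 CPM in ARE-/- ovaries, 15.1, 8.84 and 14.4 CPM in ARE+/- ovaries and 10.4, 10.5 and 12.7 CPM in WT ovaries, with a log2 fold change of 0.29 ± 0.27. ARE-/- and WT libraries overlapped for both genes, and for E2f1 the lowest and the highest of these 6 libraries were both ARE-/-. Ccne2, cyclin E2, was the only replication member with a negative value, at 10.3, 10.1 and 10.5 CPM in ARE-/- ovaries, 10.01, 7.41 and 12.2 CPM in ARE+/- ovaries and 9.33, 13.9 and 10.04 CPM in WT ovaries, a log2 fold change of -0.11 ± 0.21 with ARE-/- libraries inside the WT range.

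**Figure D3:**
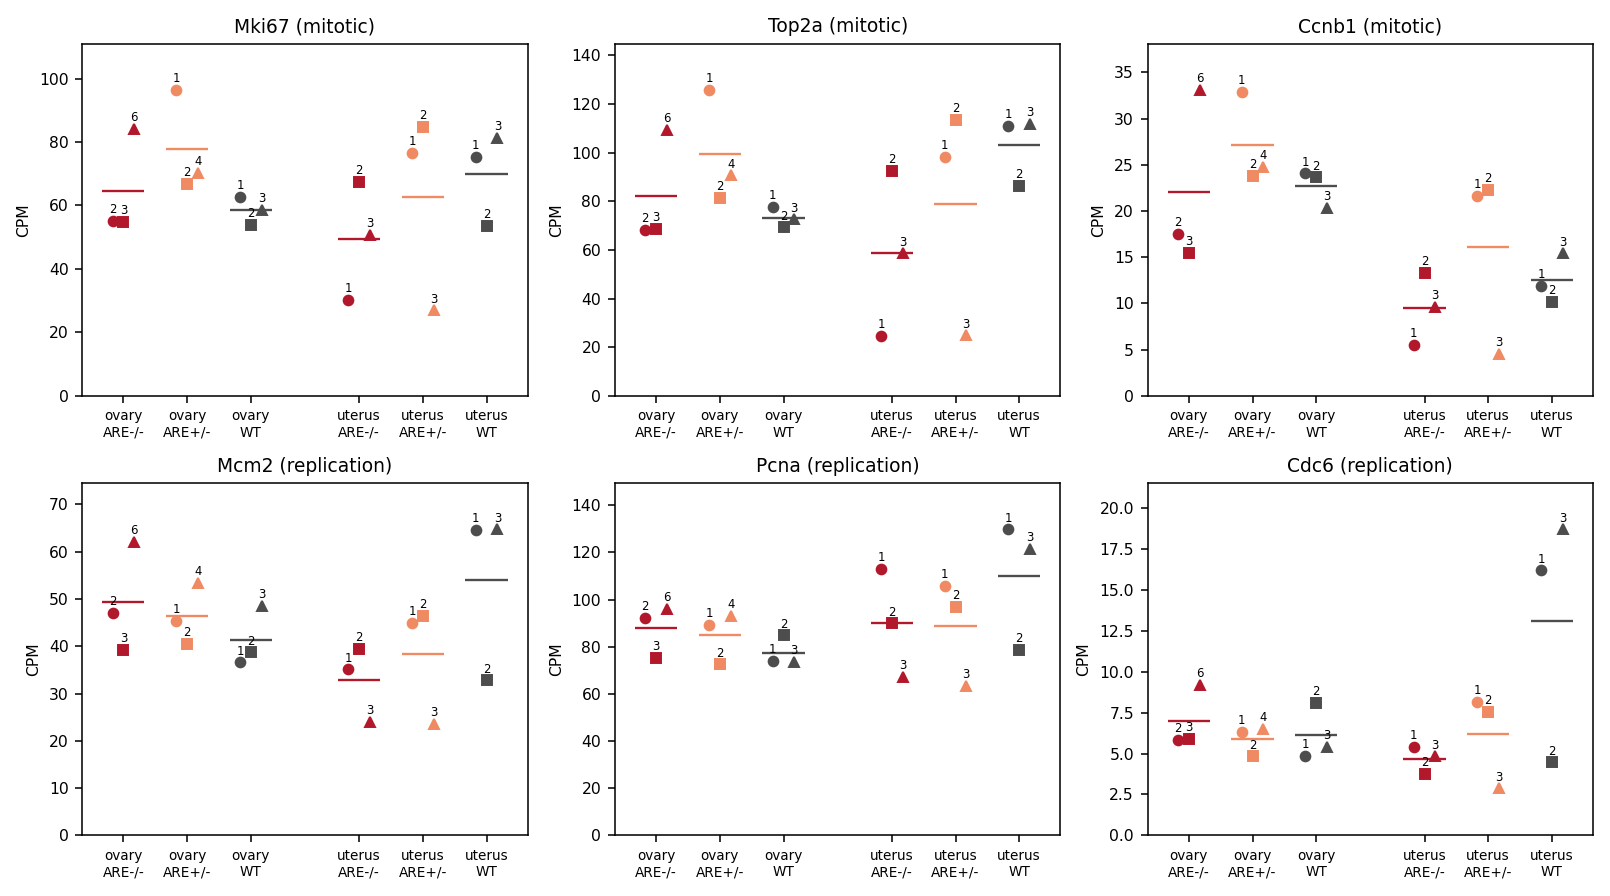
CPM of the mitotic members Mki67, Top2a and Ccnb1 and of the replication members Mcm2, Pcna and Cdc6 in each library (points) with group means (bars), ARE-/-, ARE+/- and WT from left to right in ovary and uterus. WT ovaries cluster tightly, as for Mki67 at 62.7, 53.99 and 58.7 CPM, whereas Cdc6 in WT uteri had 16.2, 4.46 and 18.7 CPM.

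In ARE+/- ovaries the mitotic members had positive values throughout. In ARE+/- against WT all 22 mitotic members had positive log2 fold changes, with a median of 0.36, and 11 of 13 replication members did, with a median of 0.19, beside 0.02 for all genes. In 12 of 35 members every ARE+/- ovary was above every WT ovary, against 14.7% of all genes, and in 0 members below, against 11.3%. These 12 were Mki67 and Top2a; Ccnb2, cyclin B2; the kinases Aurkb, Plk1 and Bub1b; Cdc20; Tpx2 and Prc1, which organise spindle microtubules; Foxm1; and the helicase subunits Mcm6 and Mcm7.

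Under edgeR's test 0 members were called in ARE+/- against WT ovaries, beside 1.35% of all genes called higher and 0.356% lower (1.71% either way). DESeq2 called 0 as well, and the lowest edgeR adjusted p was that of Mcm6 (0.31 ± 0.13, adjusted p = 0.277), the only member at an unadjusted p under 0.05, where 15.7% of all genes stood. Mki67 had a log2 fold change of 0.41 ± 0.19 and Top2a of 0.44 ± 0.21. The mitotic median was 0.18 without ARE+/- replicate 1, and the replication median 0.077 without ARE+/- replicate 4.

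Set directly against ARE+/- ovaries, ARE-/- ovaries had negative log2 fold changes for 21 of 22 mitotic members, with a median of -0.24 that ran between -0.55 without ARE-/- replicate 6 and -0.045 without ARE-/- replicate 3, while the replication median was 0.05 (-0.10 without ARE-/- replicate 6 and -0.06 without ARE+/- replicate 2). No member passed edgeR's test (0 of 35), beside 0.0491% of all genes called higher and 0% lower, and DESeq2 called 0. No member was higher or lower in every ARE-/- than in every ARE+/- ovary, against 6.32% and 6.67% of all genes. One member, Cenpe, the kinesin that carries chromosomes to the spindle equator, reached an unadjusted p under 0.05 (-0.53 ± 0.18, edgeR adjusted p = 0.531), beside 8.39% of all genes. The 2 comparisons with WT share the WT libraries, so their values are given side by side and not correlated.

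In ARE-/- uteri nearly all members had lower values than in WT, though none changed by the test. The log2 fold change was negative for 34 of 35 members, against 47.1% of all 24277 genes tested. The median was -0.48 for mitotic and -0.59 for replication members, beside 0.04 for all genes. The lowest were the replication genes Cdc6, at -1.49 ± 0.54, and Rrm2, at -0.99 ± 0.47, and the only positive value was that of Mcm7, at 0.03 ± 0.17.

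By edgeR 0 of 35 members were called, beside 3.36% of all genes called higher and 0.391% lower (3.75% either way), and DESeq2 called 0. An unadjusted p under 0.05 was reached by 3 replication members, beside 19.9% of all genes: Mcm3 (-0.78 ± 0.31, edgeR adjusted p = 0.201), Mcm4 (-0.84 ± 0.32, adjusted p = 0.179) and Cdc6 (adjusted p = 0.165). Kif20a alone was lower in every ARE-/- library than in every WT library, against 9.8% of all genes, and 0 members were higher in every one, against 12.5%. Without ARE-/- replicate 1, the library with ovarian, fat and muscle transcripts, the mitotic median was -0.30 and the replication median -0.67, and all 35 members were negative, Mcm7 at -0.055. Without WT replicate 2, edgeR called Cdc6 lower (-1.91, adjusted p = 0.0395) and the replication median was -0.87.

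The mitotic markers varied widely within each genotype. Mki67 had 30.2, 67.4 and 50.7 CPM in ARE-/- uteri, 76.6, 84.9 and 26.9 CPM in ARE+/- uteri and 75.2, 53.5 and 81.2 CPM in WT uteri, a log2 fold change of -0.50 ± 0.42 for ARE-/- over WT. Top2a, the mitotic member with the lowest log2 fold change (-0.82 ± 0.56), had 24.7, 92.5 and 58.5 CPM in ARE-/- uteri, 98.4, 113 and 24.9 CPM in ARE+/- uteri and 111, 86.2 and 112 CPM in WT uteri. In both genes ARE-/- replicate 2 lay within the WT range, ARE-/- replicate 1 and ARE+/- replicate 3 were the lowest libraries, and ARE+/- replicate 2 was the highest. Without ARE-/- replicate 1 the log2 fold changes were -0.248 for Mki67 and -0.451 for Top2a.

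Ccnb1 had 5.47, 13.3 and 9.64 CPM in ARE-/- uteri, 21.6, 22.3 and 4.53 CPM in ARE+/- uteri and 11.9, 10.2 and 15.4 CPM in WT uteri. The log2 fold change of ARE-/- over WT was -0.40 ± 0.53 (-0.127 without ARE-/- replicate 1), and ARE+/- replicates 1 and 2 stood above all other uteri. Cdk1 had 11.6, 15.4 and 14.8 CPM in ARE-/- uteri, 26.5, 28.2 and 5.77 CPM in ARE+/- uteri and 24.6, 13.02 and 25.1 CPM in WT uteri, with a log2 fold change of -0.59 ± 0.50. WT replicate 2 stood among the ARE-/- libraries for Cdk1, apart from the other WT uteri.

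Foxm1 had 9.58, 15.7 and 11.1 CPM in ARE-/- uteri, 23.8, 23.5 and 7.64 CPM in ARE+/- uteri and 21.96, 12.7 and 20.2 CPM in WT uteri, a log2 fold change of -0.60 ± 0.41 for ARE-/- over WT, again with WT replicate 2 inside the ARE-/- range. Aurka, the kinase of the spindle poles, had the mitotic value closest to 0 (-0.12 ± 0.37, and -0.049 without ARE-/- replicate 1) with 5.92, 7.17 and 6.62 CPM in ARE-/- uteri, 13.02, 13.4 and 5.02 CPM in ARE+/- uteri and 7.29, 5.36 and 8.69 CPM in WT uteri. Its ARE-/- libraries all lay inside the WT range. Kif20a, a kinesin of cell separation singled out after its values were seen, had 18.1, 25.2 and 27.3 CPM in ARE-/- uteri, 39.1, 43.4 and 16.01 CPM in ARE+/- uteri and 31.3, 33.2 and 32.6 CPM in WT uteri, a log2 fold change of -0.46 ± 0.33 (-0.305 without ARE-/- replicate 1). The gene shares 31.8% of its exon bases with Cdc23 on the other strand, so that its reads cannot be told from those of Cdc23 with certainty.

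Among replication members of the uterus, WT replicate 2 stood apart from WT replicates 1 and 3 in several genes. Cdc6 (chromosome 11, 98798627 to 98814762, plus strand) had 5.39, 3.75 and 4.82 CPM in ARE-/- uteri, 8.18, 7.57 and 2.87 CPM in ARE+/- uteri and 16.2, 4.46 and 18.7 CPM in WT uteri. Rrm2 had 13.02, 18.7 and 10.2 CPM in ARE-/- uteri, 18.3, 18.5 and 6.16 CPM in ARE+/- uteri and 35.4, 14.04 and 33.6 CPM in WT uteri. For both, WT replicates 1 and 3 were far above every other uterus, and WT replicate 2 was inside the range of ARE-/- and ARE+/- uteri. Ccne1 had 3.94, 5.42 and 3.14 CPM in ARE-/- uteri, 6.04, 5.04 and 2.93 CPM in ARE+/- uteri and 9.81, 2.39 and 11.8 CPM in WT uteri, with a log2 fold change of -0.94 ± 0.54 for ARE-/- over WT, and its WT replicate 2 was the lowest of the 9 uteri.

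Mcm2 had 35.1, 39.4 and 23.9 CPM in ARE-/- uteri, 44.9, 46.4 and 23.6 CPM in ARE+/- uteri and 64.7, 32.8 and 64.7 CPM in WT uteri, a log2 fold change of -0.72 ± 0.34 for ARE-/- over WT. Mcm5 had 41.6, 36.3 and 22.9 CPM in ARE-/- uteri, 40.7, 40.6 and 15.6 CPM in ARE+/- uteri and 61.6, 29.1 and 59.9 CPM in WT uteri, a log2 fold change of -0.58 ± 0.41. In both the ARE-/- libraries surrounded WT replicate 2 and lay below WT replicates 1 and 3. Mcm7 had 73.7, 56.01 and 69.7 CPM in ARE-/- uteri, 83.9, 69.6 and 63.7 CPM in ARE+/- uteri and 68.4, 59.95 and 67.1 CPM in WT uteri, with all 9 uteri close together, the lowest at 56.0 CPM and the highest at 83.9 CPM.

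Pcna had 113, 89.9 and 67.1 CPM in ARE-/- uteri, 106, 96.8 and 63.4 CPM in ARE+/- uteri and 129.8, 78.5 and 122 CPM in WT uteri, a log2 fold change of -0.29 ± 0.27 for ARE-/- over WT (-0.489 without ARE-/- replicate 1). E2f1 had 8.28, 10.2 and 8.65 CPM in ARE-/- uteri, 12.4, 11.2 and 5.63 CPM in ARE+/- uteri and 14.1, 7.32 and 14.4 CPM in WT uteri, a log2 fold change of -0.40 ± 0.35. For both genes WT replicates 1 and 3 were above every ARE-/- uterus, and WT replicate 2 was not.

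In ARE+/- uteri 12 of 13 replication members had negative values against WT, and the mitotic members had values of both signs. The mitotic median was 0.04, with 13 positive and 9 negative values, and the replication median was -0.58, with 12 of 13 negative, beside 0.01 for all genes. In this comparison edgeR called 0 members, beside 1.08% of all genes higher and 0.0535% lower (1.14% either way). At an unadjusted p under 0.05 there were 0 members, beside 14.1% of all genes, and DESeq2 called 0. No member was higher or lower in every ARE+/- uterus, against 15.7% and 12.9% of all genes. The mitotic median was 0.41 without ARE+/- replicate 3 and -0.23 without ARE+/- replicate 2, so its sign rests on single libraries. The replication median was -0.30 without ARE+/- replicate 3 and -0.85 without WT replicate 2.

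Against ARE+/- uteri, ARE-/- uteri had negative log2 fold changes for 22 of 22 mitotic members, with a median of -0.55, and for 10 of 13 replication members, with a median of -0.12 (0.05 without ARE+/- replicate 1 and 0.001 without ARE+/- replicate 2). The edgeR test called 0 members and 0% of all genes in either direction, and DESeq2 called 0 members. No member was higher or lower in every ARE-/- than in every ARE+/- uterus, against 4.77% and 4.3% of all genes. At an unadjusted p under 0.05 there were 0 members, beside 4.87% of all genes. The mitotic median ran between -0.95 without ARE+/- replicate 3 and -0.23 without ARE+/- replicate 2, and was -0.33 without ARE-/- replicate 1.

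Whether the difference between ARE-/- and WT itself differed between the tissues was tested in 1 fit over all 18 libraries. The log2 fold change in the ovary minus that in the uterus was positive for 35 of 35 members, whereas 52.6% of all 26682 genes had a negative value. The median was 0.60 for mitotic members and 0.98 for replication members, beside -0.04 for all genes, and without uterus ARE-/- replicate 1 these medians were 0.40 and 0.88. Without ovary ARE-/- replicate 6 they were 0.235 and 0.777. Of the mitotic members 19 of 22 were positive without ovary ARE-/- replicate 6 and 21 of 22 without uterus ARE-/- replicate 1. All 13 replication members were positive in both of these fits. By edgeR 0 members passed the threshold, beside 0.06% of all genes higher and 0.109% lower (0.169% either way), and DESeq2 called 0. An unadjusted p under 0.05 was reached by 6 replication members, beside 14.1% of all genes: Cdc6 (1.69 ± 0.64, edgeR adjusted p = 0.259), Mcm3 (1.12 ± 0.39), Mcm4 (1.05 ± 0.37), Mcm2 (0.98 ± 0.41), Mcm6 (0.70 ± 0.31) and Rrm2 (1.25 ± 0.55).

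For ARE+/- against WT the same difference between tissues was positive for 29 of 35 members, with a median of 0.25 for mitotic and 0.67 for replication members, beside 0.02 for all genes. By edgeR 0 members passed, beside 0% of all genes higher and 0.00375% lower, and DESeq2 called 0. At an unadjusted p under 0.05 there were 3 members, all replication genes, beside 8.92% of all genes. Without uterus ARE+/- replicate 3 the mitotic median was -0.085 and the replication median 0.418.

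**Figure D4:**
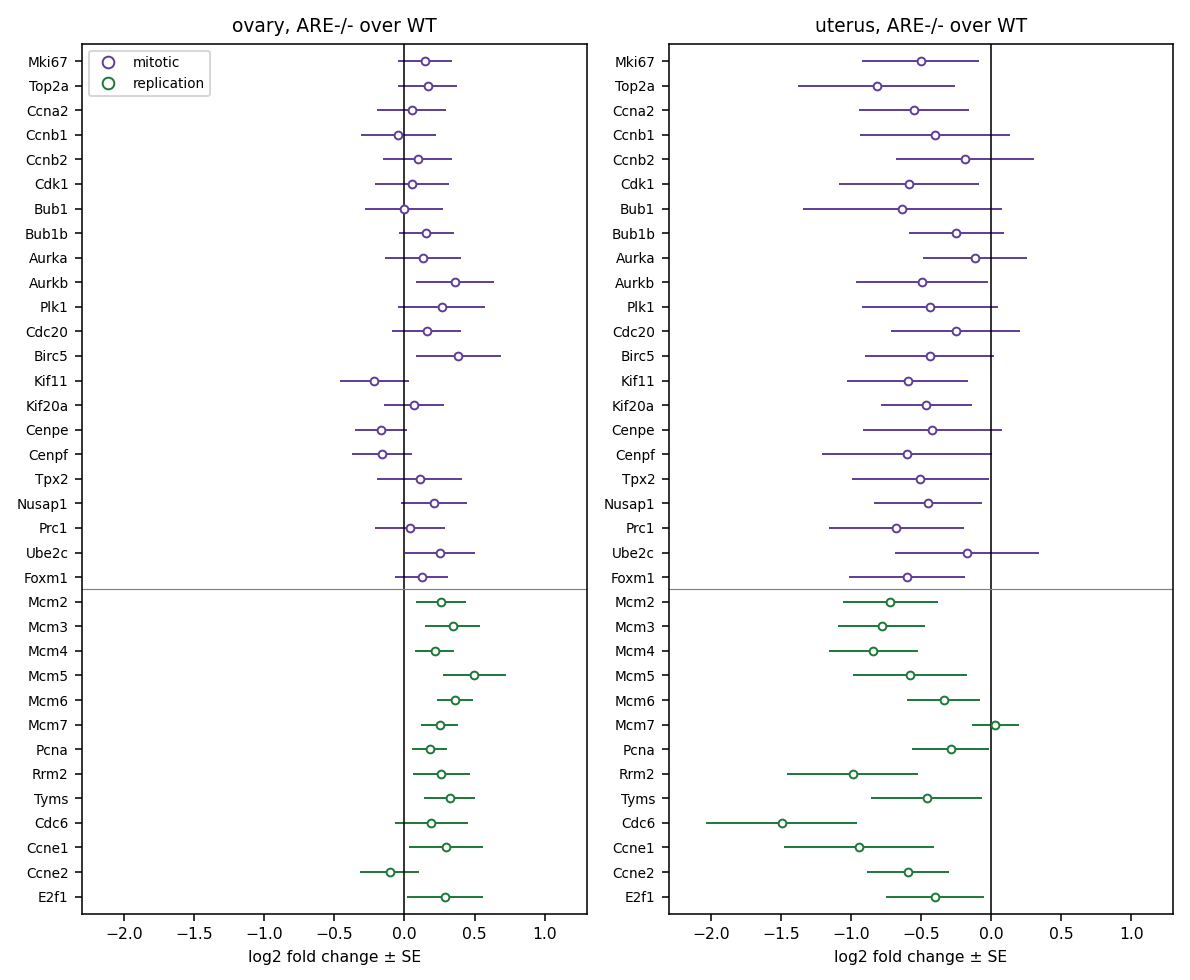
Log2 fold change of ARE-/- over WT with its SE (bars) for the 35 members, in ovary and in uterus, from edgeR. Ovary values lie between -0.21 (Kif11) and 0.50 (Mcm5), and uterus values between -1.49 (Cdc6) and 0.03 (Mcm7); 0 members were called in either tissue.

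Between the tissues of WT mice 3 replication members were lower in WT ovaries than in WT uteri: Ccne1 (-1.76 ± 0.46, edgeR adjusted p = 0.00956), Mcm3 (-0.80 ± 0.28, adjusted p = 0.0440) and Pcna (-0.65 ± 0.22, adjusted p = 0.0434). All 13 replication members had negative log2 fold changes of ovary over uterus, with a median of -0.65, while the mitotic median was 0.15, with 14 positive and 8 negative, beside -0.02 for all genes. The mitotic median was -0.06 without uterus WT replicate 2. With edgeR 0 members were called higher and 3 lower, beside 13.3% of all genes higher and 11.9% lower (25.2% either way), so the members' share is below the background of this comparison. At an unadjusted p under 0.05 there were 7 members, all lower and all of replication, beside 36.5% of all genes.

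On a scale shared by all 18 libraries, Ccne1 (chromosome 7, 37797409 to 37806959, minus strand) had 1.99, 2.91 and 2.59 CPM in WT ovaries and 10.4, 2.51 and 12.5 CPM in WT uteri. Mcm3 (chromosome 1, 20873192 to 20890536, minus strand) had 37.2, 34.1 and 38.3 CPM in WT ovaries and 79.6, 37.5 and 74.3 CPM in WT uteri. Pcna had 70.4, 81.5 and 70.3 CPM in WT ovaries and 137, 82.5 and 128 CPM in WT uteri. For each of these 3 the ovaries were close together and the uteri were not, with WT uterus replicate 2 next to the ovary values and replicates 1 and 3 far above. Only Pcna had every ovary below every uterus.

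The largest other negative values among members were those of Cdc6 (-1.25 ± 0.45) and Mcm5 (-0.96 ± 0.36). Cdc6 had 4.59, 7.76 and 5.18 CPM in WT ovaries and 17.1, 4.69 and 19.8 CPM in WT uteri. Mcm5 had 23.8, 27.2 and 30.8 CPM in WT ovaries and 65.2, 30.6 and 63.2 CPM in WT uteri. Both repeat the split among WT uteri, and in both WT uterus replicate 2 lay inside the ovary range.

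The 3 largest positive values were mitotic, though none passed the test. Ccnb1 had 22.9, 22.7 and 19.5 CPM in WT ovaries and 12.6, 10.7 and 16.3 CPM in WT uteri (0.72 ± 0.46, edgeR adjusted p = 0.287). Ccnb2 had 18.6, 15.8 and 17.4 CPM in WT ovaries and 11.01, 9.69 and 12.7 CPM in WT uteri (0.63 ± 0.42), and Aurka had 10.8, 12.2 and 11.2 CPM in WT ovaries and 7.72, 5.63 and 9.18 CPM in WT uteri (0.61 ± 0.34). In all 3 every ovary was above every uterus. The same held for Bub1b, a kinase of the spindle checkpoint, Cdc20 and Cenpf, which makes 6 of 35 members, against 24.2% of all genes. Every ovary was below every uterus for Top2a, Mcm7, Pcna and Tyms, the enzyme that makes thymidylate, which is 4 of 35 members, against 21.6% of all genes.

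The calls between tissues depended on single libraries. Leaving out WT uterus replicate 3 left 0 members called lower, and leaving out WT uterus replicate 2 gave 10 (Ccne1, Ccne2, Cdc6, Mcm2, Mcm3, Mcm4, Mcm5, Mcm6, Pcna and Rrm2). Without uterus ARE+/- replicate 3 there were 6, and Ccne1 alone was called without any 1 of 9 libraries, which were 3 of the uterus (WT 1, ARE+/- 2 and ARE-/- 2) and, of the ovary, all 3 WT libraries, ARE+/- 1 and 4, and ARE-/- 2. Without ovary ARE+/- replicate 2 or ARE-/- replicate 6, Ccne1 and Mcm3 were called.

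**Figure D5:**
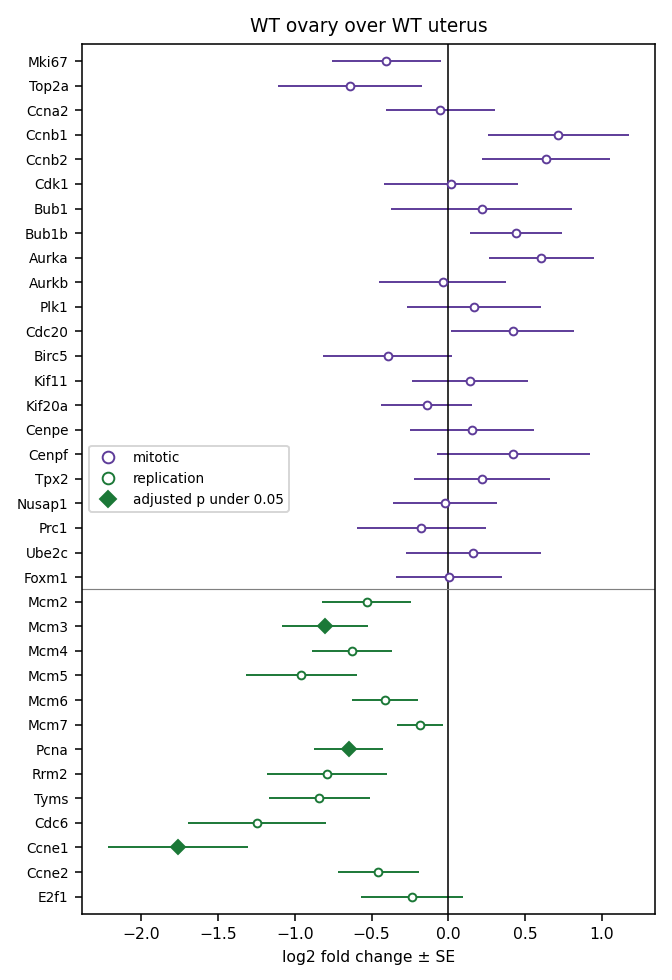
Log2 fold change of WT ovary over WT uterus with its SE for the 35 members, from the edgeR fit over 18 libraries; filled diamonds mark an adjusted p under 0.05. Replication members all lie below 0, the lowest being Ccne1 at -1.76, and mitotic members lie on both sides, the highest being Ccnb1 at 0.72.

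Genes of the same pathway beyond the members were read from lists of 45 other mitotic genes, 47 other replication genes, 8 G1 cyclins and kinases and 15 cell cycle inhibitors. In ARE-/- ovaries against WT, edgeR called 3 of 47 other replication genes higher and 0 lower, a share near the 6.31% of all genes called higher, and 0 of 45 other mitotic genes, with medians of 0.23 and 0.09. Without ARE-/- replicate 6 these medians were 0.035 and -0.22, Rfc2 was the replication gene still called, and Anln, a scaffold of the cleavage furrow, was called lower. The 3, named after their values were seen, were Rfc2 (0.52 ± 0.09, adjusted p = 0.00660), a subunit of the loader that opens the PCNA ring, Pold1 (0.46 ± 0.10, adjusted p = 0.0226), the catalytic subunit of polymerase delta, and Lig1 (0.51 ± 0.14, adjusted p = 0.0422), the ligase that seals new DNA. Lig1 lost its call without 8 of the 9 libraries and Pold1 without 4.

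Rfc2 had 56.9, 57.5 and 61.6 CPM in ARE-/- ovaries, 53.2, 48.8 and 49.6 CPM in ARE+/- ovaries and 37.2, 43.04 and 42.3 CPM in WT ovaries, so every ARE-/- and ARE+/- ovary was above every WT ovary, and it kept its call without any single library. Of the cyclin D genes, which open the way into the cycle, Ccnd1 and Ccnd3 were called in ARE-/- ovaries and Ccnd2 was not (-0.08 ± 0.12, edgeR adjusted p = 0.748). The 8 G1 genes together had a median of -0.001. Ccnd1 had 121, 94.1 and 90.5 CPM in ARE-/- ovaries, 94.4, 85.4 and 108 CPM in ARE+/- ovaries and 49.3, 52.1 and 61.2 CPM in WT ovaries. It rose in ARE-/- ovaries by 0.91 ± 0.14 on the log2 scale (edgeR adjusted p = 0.00427) and in ARE+/- ovaries by 0.83 ± 0.14 (adjusted p = 0.0226), and no ARE-/- or ARE+/- ovary reached down to a WT ovary. The ARE-/- call held without any single library, whereas the ARE+/- call was lost without 5 of them, among them each WT library.

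Ccnd3 had 159.6, 109.6 and 114 CPM in ARE-/- ovaries, 93.7, 99.2 and 119 CPM in ARE+/- ovaries and 75.4, 82.9 and 80.7 CPM in WT ovaries, a rise of 0.68 ± 0.15 in ARE-/- ovaries (edgeR adjusted p = 0.0185) that was lost without any 1 of the WT libraries. Cdkn1c, the inhibitor p57, was the only one of the 15 inhibitors called in ARE-/- ovaries (6.31% of all genes were called higher), at 0.60 ± 0.17 (adjusted p = 0.0452), and lost its call without 6 of the 9 libraries. Its CPM were 34.2, 27.9 and 26.9 in ARE-/- ovaries, 28.96, 35.5 and 23.9 in ARE+/- ovaries and 16.9, 21.7 and 19.97 in WT ovaries. No ARE-/- or ARE+/- ovary was as low as any WT ovary.

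In ARE-/- uteri against WT edgeR called 0 genes of these 4 lists, with medians of -0.56 for other mitotic genes, -0.38 for other replication genes, -0.22 for G1 cyclins and kinases and 0.39 for inhibitors. Without ARE-/- replicate 1 these were -0.41, -0.48, -0.37 and 0.26, and edgeR called Cdk6 and the inhibitor Btg1 higher. In ARE+/- uteri 1 of 8 G1 genes was called, beside 1.08% of all genes higher, Cdk6, a kinase that works with D-type cyclins, at 0.86 ± 0.17 (edgeR adjusted p = 0.0466), with 52.98, 67.4 and 75.01 CPM in ARE-/- uteri, 81.9, 69.4 and 75.8 CPM in ARE+/- uteri and 38.4, 45.2 and 41.1 CPM in WT uteri. Every ARE-/- and ARE+/- uterus was above every WT uterus, and the call was lost without 7 of the 9 libraries.

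Between WT tissues the other replication genes repeated the members' direction: edgeR called 10 of 47 lower in the ovary and 0 higher, beside 11.9% and 13.3% of all genes, with a median of -0.62, while 1 of 45 other mitotic genes was called lower, Cdc25b (-0.87 ± 0.20), and 0 higher, with a median of -0.08. Chaf1b, which places histones on new DNA, averaged 5.30 ± 0.303 CPM in WT ovaries and 13.3 ± 5.38 CPM in WT uteri (-1.33 ± 0.31, adjusted p = 0.00537; SD, n = 3 each). E2f8, a repressor of the E2F family, averaged 4.88 ± 0.293 CPM in WT ovaries and 15.8 ± 9.82 CPM in WT uteri (-1.69 ± 0.54, edgeR adjusted p = 0.0311), a call lost without 5 of the 18 libraries. The uterine SDs of both genes are far above the ovarian ones.

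The D-type cyclin genes Ccnd1 and Ccnd2 took opposite places in the tissues. Ccnd2, the cyclin D of granulosa cells, averaged 179.3 ± 12.7 CPM in WT ovaries and 70.8 ± 4.66 CPM in WT uteri (1.34 ± 0.25, edgeR adjusted p = 0.00104). Ccnd1, which is also on the estrogen-response list, averaged 51.8 ± 6.004 CPM in WT ovaries and 138.8 ± 28.9 CPM in WT uteri (-1.42 ± 0.20, adjusted p = 0.000113). Of the 15 inhibitors 4 were called higher in the ovary and 2 lower, beside 13.3% and 11.9% of all genes. The inhibitor Cdkn2b, which blocks the kinases of the D-type cyclins, averaged 35.7 ± 19.8 CPM in WT ovaries and 2.91 ± 1.43 CPM in WT uteri (3.62 ± 0.67, adjusted p = 0.00104), and Gadd45a, a stress-induced brake on the cycle, averaged 95.95 ± 45.1 CPM in WT ovaries and 33.1 ± 9.45 CPM in WT uteri (1.54 ± 0.33, adjusted p = 0.00282).

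In the authors' deposited table of a likelihood-ratio test of any genotype difference, 0 of 35 members had an adjusted p under 0.05 in either tissue, where 12.1% of ovary genes and 7.55% of uterus genes with a p did. The authors' deposited table gave the lowest adjusted p among members to Cenpe in the ovary (0.138) and to Cdc6 in the uterus (0.105).

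Exon bases are shared with another gene by 11 members, at most 32.9% (Pcna), then 31.8% (Kif20a), 22.8% (Ube2c with Tnnc2) and 21.8% (Prc1 with Rccd1), and at most 10.8% with any 1 gene for the others. Pseudogenes of 4 members were counted apart, with 85 to 258 counts per library for Ccnb2-ps, 61 to 190 for Pcna-ps2, at most 24 for Ccnb1-ps and at most 4 for Tyms-ps. Reads that fit several places were counted at each, so a part of these members' counts is uncertain. Its size was not measured, and for Ccnb2, with 168 counts in uterus ARE+/- replicate 3, it need not be small.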

How the data were processed

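The authors deposited 1 table per tissue of whole-number counts per gene, made with featureCounts 2.0.4 on GENCODE M32, per the file headers. Mates were counted singly, reads with several places or genes were counted for each, and no strand was set. STAR, DESeq2 and the build mm10 come from the submitters' processing notes. GENCODE M32 annotates a later build, so the sources differ: gene coordinates are printed as the tables' annotation gives them, and promoters, with their own coordinates, are those of RefSeq for GRCm38.p6. The authors also deposited an adjusted p-value per gene from a likelihood-ratio test.

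Of the 57010 gene IDs, 91.3% had a symbol. Columns were matched to libraries by name, and 0 columns of per-sample values were left unused. TPM used the exon lengths in the tables, and CPM used TMM-scaled library sizes, per tissue or, between tissues, over all 18 libraries. The main test was edgeR 4.0.16 (R 4.3.3, limma 3.58.1): filterByExpr, TMM, robust quasi-likelihood fits with 1 mean per group, and Benjamini-Hochberg adjustment over all genes tested with a threshold of 0.05. The SE is the log2 fold change over the square root of F. The code was tested on simulated data. Alternatives were DESeq2 1.42.0, its size factors in edgeR, no filter, no robust option, only the 2 genotypes compared, a replicate block, and each library left out; figures used matplotlib 3.10.9.

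Values in every library are given for members called between genotypes, for Mki67, Top2a, Ccnb1, Cdk1, Foxm1, Mcm2, Mcm5, Pcna, Rrm2, Ccne1 and E2f1, and for the members with the highest and lowest log2 fold change of each group in ARE-/- against WT. For the tissues these are the 3 largest differences each way, and for other genes of the pathway at most 3 called genes in each direction per comparison. The members and lists were chosen with earlier results of these data known. Replicate numbers paired ARE-/- with ARE+/- uteri by the rule that every same-numbered pair's deviations correlate above 0.1 (0.114, 0.116 and 0.352). Only 4 of these 6 libraries were closest to their own number. The main fit did not use this pairing and called no gene between these groups. The block, put on all uteri with WT included, changed no call there. Counts of every pair of libraries in a group differed beyond sampling noise, with a chi-square of 15.2 to 316 for each degree of freedom.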

Additional observations from a re-analysis of the deposited data

How the results depend on the processing

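No member was called between genotypes under any alternative except Cdc6, lower in ARE-/- than in WT uteri without WT replicate 2, so the count called lower there ran between 0 and 1 as single libraries were left out. Between WT tissues the count called lower was 3, and it was 5 with the replicate block (Mcm3, Mcm5, Pcna, Top2a and Tyms, without Ccne1), 6 with DESeq2 (Ccne1, Cdc6, Mcm3, Mcm5, Pcna and Tyms) and between 0 and 10 without single libraries; the block also called 2 higher (Ccnb1 and Ccnb2). The cause of these moves was not tested, apart from the smaller number of samples when a library is left out.

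With the replicate block the mitotic median of ARE-/- against WT ovaries was -0.17. No other ovary shares the number of ARE-/- replicate 6 or ARE+/- replicate 4. The block thus fitted both libraries exactly and in effect left them out. Without single libraries the mitotic median ran between -0.22 (without ARE-/- replicate 6) and 0.26. Log2 fold changes of ARE-/- over WT changed sign in this way in the ovary for Mki67 (-0.11 to 0.24), Top2a (-0.12 to 0.27), Ccnb1 (-0.48 to 0.14), Cdk1 (-0.31 to 0.24, and -0.23 with the replicate block), Foxm1 (-0.088 to 0.276), E2f1 (-0.014 to 0.494), Birc5 (-0.089 to 0.562) and Ccne2 (-0.239 to 0.072), and in the uterus for Aurka (-0.29 to 0.05) and Mcm7 (-0.055 to 0.135). The mitotic median of the ARE-/- difference, ovary minus uterus, was 0.07 with the replicate block, and that of the ARE+/- difference was -0.04. This block joined ovary and uterus libraries of the same genotype and number. Ovary ARE-/- replicate 6, uterus ARE-/- replicate 1, ovary ARE+/- replicate 4 and uterus ARE+/- replicate 3 had no partner. The block in effect left them out of both medians.

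Same-numbered libraries correlated at 0.145, 0.102 and 0.0326 between ARE-/- and WT uteri (6 of 6 closest to their own number), at -0.0382, 0.0541 and 0.0911 between ARE+/- and WT uteri (3 of 6), at -0.102 and -0.0273 between ARE-/- and WT ovaries and -0.0447 and -0.00167 between ARE+/- and WT ovaries (0 of 4 each), at -0.19 for the 1 number shared by ARE-/- and ARE+/- ovaries, and at 0.0447, 0.19 and 0.0759 between WT ovaries and WT uteri (2 of 6). ARE+/- ovaries and uteri correlated at 0.111 and 0.0688, and ARE-/- ovaries and uteri at 0.0205 and 0.0358 (4 of 4 each). None of these met the rule of every pair above 0.1, so they were not taken as paired. The labels do not say what the numbers stand for. Pairing is thus not settled, as between ARE-/- and WT uteri. The block took the adjusted p of Rfc2, Pold1, Lig1, Cdkn1c, Cdk6 and, in ARE+/- ovaries, Ccnd1 above the threshold, which ends those calls. It also left fewer degrees of freedom, and in the ovary it in effect left out ARE-/- replicate 6 and ARE+/- replicate 4. A part of pairing in these lost calls cannot be told apart from that loss of data.

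With 3 libraries a group the precision is set by the spread between libraries.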
